A study of Mus musculus with 8 samples.

Results

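Open chromatin was examined at 10 genes of extracellular proteolysis in BV2 cells, an immortalised mouse microglial line: the matrix metalloproteinases Mmp2, Mmp8, Mmp9, Mmp12, Mmp13 and Mmp14, the tissue inhibitors of metalloproteinases Timp1, Timp2 and Timp3, and the sheddase Adam17. A region belonged to a gene when it lay within 10 kb of the gene body. By this rule 31 of 40784 regions belonged to the 10 genes, and each gene had at least 1. The assay was ATAC-seq, which marks open chromatin by letting Tn5 transposase cut it and add adapters. The 8 libraries came from 4 groups of 2 biological replicates: BV2 monoculture in normoxia (21% O2), BV2 monoculture in hypoxia (<0.1% O2), co-culture in normoxia and co-culture in hypoxia. In co-culture, BV2 cells had been seeded onto GL261 mouse glioma cells at 1 BV2 cell per 2 GL261 cells. Every group was held for 16 h at its oxygen level, and cells positive for CD45 (or for GFP, which the labels give as the other sort) were collected after fixation. Which sort gave which library is not stated in the labels. The samples are cell lines and not primary microglia, and a sorted co-culture sample may still hold GL261 cells. In bulk samples, an opening in fewer cells and a weaker opening in each cell cannot be told apart.

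Matrix metalloproteinases are zinc endopeptidases that cut collagens, elastin and other matrix proteins. Most are secreted as inactive precursors, and TIMP proteins block them by binding the active site. Microglia and tumour-associated macrophages release several of them. In glioma, membrane-bound MMP14 on microglia is known for activating pro-MMP2 together with TIMP2, a step linked to invasion of brain tissue. Many promoters of this family carry an AP-1 element close to the start site.

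The promoters differed in base composition and in whether a peak lay on them. A RefSeq table (GRCm38.p6) held promoter windows of 300 bases, from 250 before to 50 after the start, for Mmp8, Mmp12 (2 starts), Mmp13, Mmp14, Timp1, Timp2, Timp3 and Adam17. Mmp2 and Mmp9 were not matched. The 250 upstream bases of 4 promoters are shown, because Adam17 had the most frequent promoter peak, Mmp13 and Timp2 had a peak in 1 library, and Timp3 is CpG-rich without a peak on its window. Capitals mark matches on either strand to the motifs listed after them.
Adam17, chr12:21373633-21373882, minus strand: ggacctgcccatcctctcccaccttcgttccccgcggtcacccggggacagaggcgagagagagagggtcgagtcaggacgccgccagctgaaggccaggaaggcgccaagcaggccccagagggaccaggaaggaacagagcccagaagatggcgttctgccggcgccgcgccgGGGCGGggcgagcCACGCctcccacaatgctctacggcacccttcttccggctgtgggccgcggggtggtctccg
Timp2, chr11:118355412-118355661, minus strand: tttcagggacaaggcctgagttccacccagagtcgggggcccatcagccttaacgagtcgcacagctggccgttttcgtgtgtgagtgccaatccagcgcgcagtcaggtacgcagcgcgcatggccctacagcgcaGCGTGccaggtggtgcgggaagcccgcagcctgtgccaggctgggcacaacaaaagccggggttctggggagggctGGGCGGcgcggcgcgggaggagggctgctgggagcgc
Timp3, chr10:86300162-86300411, plus strand: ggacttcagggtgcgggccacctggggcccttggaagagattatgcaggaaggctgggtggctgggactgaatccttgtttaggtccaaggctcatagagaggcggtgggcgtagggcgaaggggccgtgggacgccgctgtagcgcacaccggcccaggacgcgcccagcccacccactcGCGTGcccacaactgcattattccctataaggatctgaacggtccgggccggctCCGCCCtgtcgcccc
Mmp13, chr9:7272264-7272513, plus strand: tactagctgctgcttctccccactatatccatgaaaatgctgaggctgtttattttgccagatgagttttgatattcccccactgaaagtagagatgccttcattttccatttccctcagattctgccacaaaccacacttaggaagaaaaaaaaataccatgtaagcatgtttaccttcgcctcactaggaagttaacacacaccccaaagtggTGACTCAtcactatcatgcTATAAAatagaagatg

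The motifs searched were AP-1 (TGANTCA), the hypoxia response cores ACGTG and GCGTG, a PU.1/ETS core (GAGGAA), the GC box (GGGCGG), the TATA box (TATAAA) and an NF-kappaB site. None of these matches overlapped in the sequences shown. An AP-1 match stood at bases 35 to 29 before the start of Mmp13 and at bases 44 to 38 before the second start of Mmp12. Of all 32851 promoters, 6.75% held an AP-1 match in the same 250 bases. A GC box was found before Adam17, Mmp14, Timp1, Timp2 and Timp3, against 32.7% of all promoters. GCGTG was found before Adam17, Timp1, Timp2 and Timp3 (28.2% of all promoters), and ACGTG before Mmp14 and Timp1 (16.6%). The PU.1/ETS core stood before Mmp8 and the first start of Mmp12 (23.3% of all promoters), and the TATA box before Mmp13 (12.4%). No NF-kappaB match was found in these windows (0.356% of all promoters). A match describes letters and not a bound site.

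Adam17, Timp2 and Timp3 had CpG-rich windows, defined as a GC content of at least 50% and an observed over expected CpG ratio of at least 0.6. Their GC contents were 70.0%, 68.7% and 67.0%, with ratios of 0.816, 0.718 and 0.714. The Mmp8, Mmp12 and Mmp13 windows had GC contents from 38.7% to 46.0% and ratios from 0 to 0.274. Mmp14 and Timp1 lay between them, with 56.0% and 55.0% GC and ratios of 0.425 and 0.384. A peak covered part of the Adam17 window in 7 libraries, of the Mmp13 window in 1 and of the Timp2 window in 1. The windows of Mmp8, Mmp12, Mmp14, Timp1 and Timp3 had no peak in any list. The Timp3 window ended at base 86300461, and a region called in 1 library began directly after it, at base 86300462. Among all promoter windows, 34.7% had a peak in at least 1 library and 17.3% in at least 7. These shares were 73.0% and 40.4% for CpG-rich windows, and 15.5% and 5.65% for the others. A missing peak is a site that did not pass the threshold at the depth of that library, and does not show closed chromatin.

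The lists held from 9910 to 29658 peaks, with both normoxic monoculture lists the shortest and the first hypoxic co-culture list the longest. Depth was estimated from each list, since no read totals were used here. The commonest background was 0.758 to 1.45 fragments per position, at which a call needed at least 6 to 8 fragments at the summit. The 114 peaks in regions of the 10 genes held from 7 to 113 summit fragments, with a median of 29.5. Among microglial markers, all 10 genes had a region within 10 kb in at least 1 library, and each library had one at 7 to 10 of them. Of all protein-coding genes, 69.5% had a region in at least 1 library. By library the share was 42.8% and 35.8% in normoxic monoculture, 57.5% and 58.4% in hypoxic monoculture, 59.0% and 59.9% in normoxic co-culture, and 64.5% and 60.5% in hypoxic co-culture. Of 10 glial and glioma markers, 0 had a region in either normoxic monoculture library, 1 and 2 in hypoxic monoculture, 4 and 2 in normoxic co-culture, and 6 and 5 in hypoxic co-culture.

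**Figure D1:**
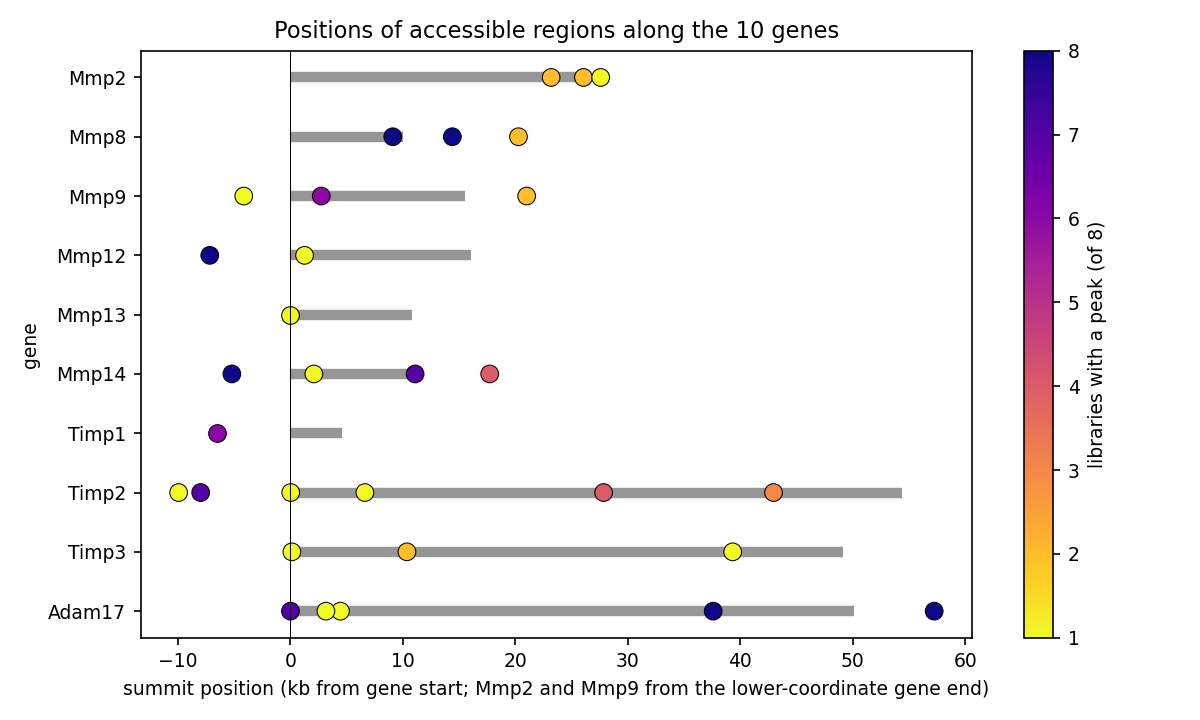
Summit positions of the 31 regions (points) along the 10 genes (grey bars, gene bodies), in kb from the gene start, or from the lower-coordinate end for Mmp2 and Mmp9. Colour gives the number of the 8 libraries with a peak. Regions called in all 8 libraries lay at or near Mmp8, Mmp12, Mmp14 and Adam17.

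Of the 31 regions, 6 had a peak in all 8 libraries (15.6% of all regions did) and 12 in a single library (26.7% of all regions). The median region of the 10 genes had a peak in 2 libraries, and the median over all regions was 4. The 6 regions belonged to 4 of the 10 genes, while 28.2% of all 21883 protein-coding genes had such a region within 10 kb. The body of the gene itself held or touched 18 regions. A listed gene start was overlapped by 5 of the 31 regions, against 19.9% of all regions. For 2 of the 5 it was the start of the gene itself, Adam17 or Timp2. The other 3 lay at the starts of the neighbours Mrpl52, Slc12a5 and Iah1. No start was listed for Mmp2 or Mmp9, so a region at their own start could not be counted. The gene table used here gives no exons, so exonic and intronic positions were not separated.

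**Figure D2:**
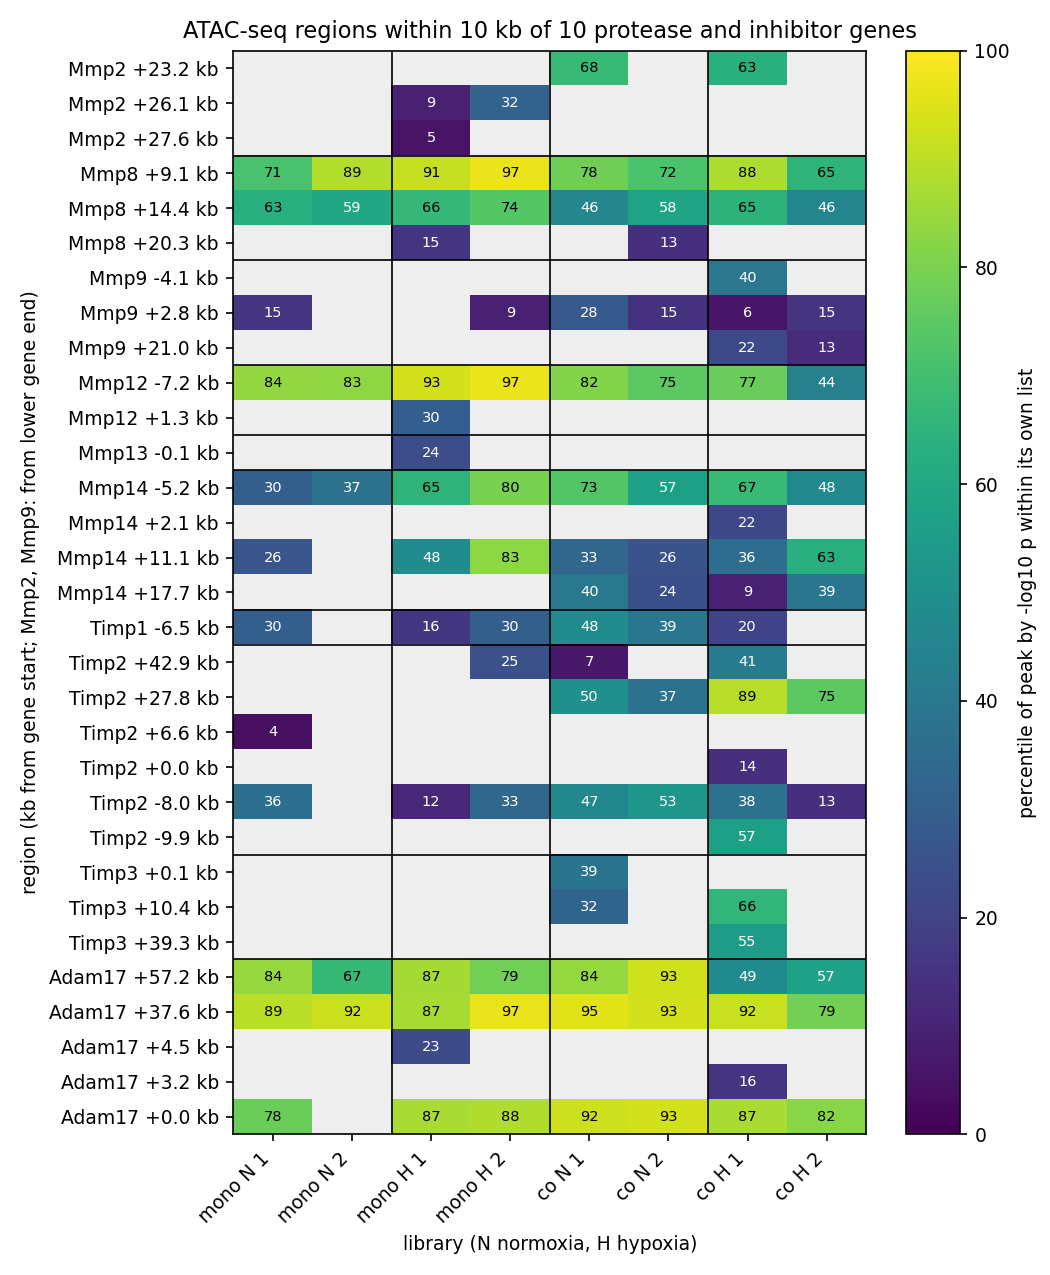
Percentile of each peak among the peaks of the same library, ordered by −log10 p, for the 31 regions (rows, named by gene and distance) in the 8 libraries (columns). Grey cells have no peak. The rows filled in all columns belong to Mmp8, Mmp12, Mmp14 and Adam17, and the Mmp14 +17.7 kb and Timp2 +27.8 kb rows are filled in the 4 co-culture columns alone.

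By library, normoxic monoculture had 12 and 6 of the 31 regions, hypoxic monoculture 16 and 13, normoxic co-culture 17 and 14, and hypoxic co-culture 23 and 13. Over all regions the shares called were 30.8% and 23.1%, 57.2% and 62.3%, 51.7% and 51.5%, and 70.7% and 51.5% in the same order. For the 10 genes they were 38.7% and 19.4%, 51.6% and 41.9%, 54.8% and 45.2%, and 74.2% and 41.9%. Both shares were lowest in the shortest list and highest in the longest, and the part of list length in these counts was not tested. The first hypoxic co-culture library held 6 of the 12 regions found in a single library, the first hypoxic monoculture library 4, and the first libraries of the normoxic groups 1 each. These 12 peaks had 7 to 40 summit fragments and percentiles from 4.25 to 57.0.

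**Figure D3:**
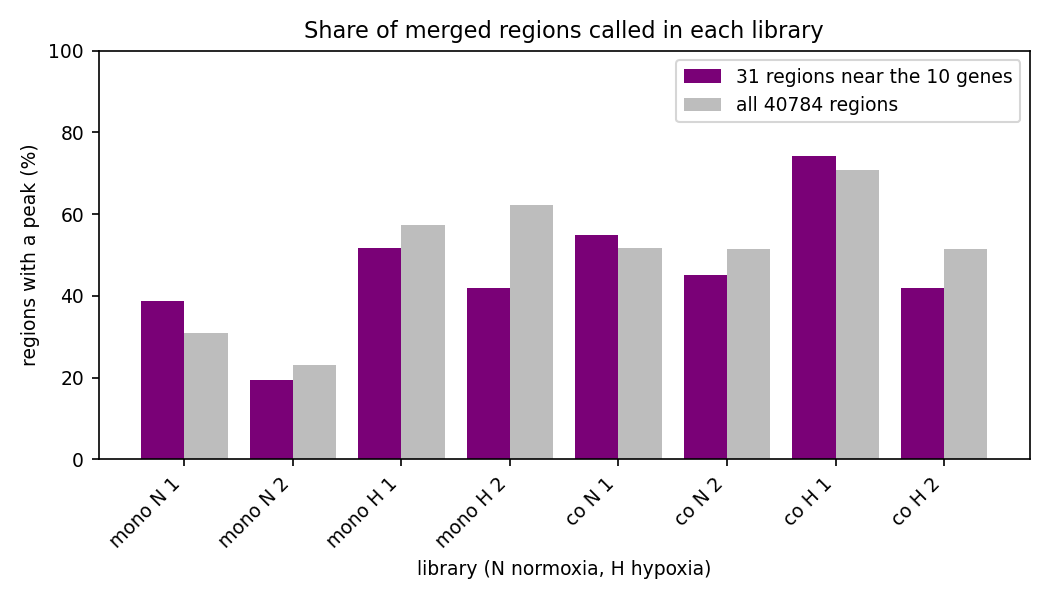
Share of regions with a peak in each library, for the 31 regions near the 10 genes (purple bars) and for all 40784 regions (grey bars). Both shares were lowest in the second normoxic monoculture library (19.4% and 23.1%) and highest in the first hypoxic co-culture library (74.2% and 70.7%).

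Mmp8 and Mmp13 encode collagenases, and both genes lie in the metalloproteinase cluster of chromosome 9. Mmp8 (neutrophil collagenase) had 2 regions called in all libraries. The first, chr9:7567097-7567842, lay in the gene body, 9110 bp downstream of the start. Its percentiles by −log10 p within each list were 71.1 and 88.6 in normoxic monoculture, 91.3 and 97.0 in hypoxic monoculture, 78.5 and 71.5 in normoxic co-culture, and 87.5 and 65.2 in hypoxic co-culture. Each list had its own length, so these percentiles describe a peak's place in its list and show no change between lists. Its summits in the 8 lists fell within 70 bp of each other and held 26 to 104 fragments. The second, chr9:7572439-7573314, lay 3953 bp beyond the gene body and inside the neighbouring metalloproteinase gene Mmp27. It ranked lower than the first in every library, with percentiles of 62.9 and 59.4, 66.5 and 73.6, 46.1 and 58.3, and 64.6 and 45.6 in the same order of groups. The remaining Mmp8 region, also inside Mmp27 (chr9:7578035-7578878), was called in the first hypoxic monoculture and the second normoxic co-culture library, at percentiles of 15.0 and 13.4.

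Mmp13 (collagenase 3) had a single region, chr9:7272182-7272510, which ended 4 bp before its start and covered the AP-1 and TATA matches printed above. It was called in the first hypoxic monoculture library alone, at percentile 23.7 with 17 summit fragments. The second library of that group had no peak there.

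Mmp12 (macrophage metalloelastase, an elastin-cutting enzyme of macrophages) had a region called in all libraries at chr9:7336804-7337620, with its summit 7153 bp upstream of the first start. It overlapped no gene in the table. Its percentiles were 83.8 and 83.3 in normoxic monoculture, 93.3 and 97.0 in hypoxic monoculture, 81.6 and 74.8 in normoxic co-culture, and 77.2 and 43.7 in hypoxic co-culture. The summit held 113 fragments in the second hypoxic monoculture library, the most among the regions of the 10 genes, and 27 in the second hypoxic co-culture library. The lowest percentiles thus came from the 2 hypoxic co-culture libraries and the second normoxic one. A region 1270 bp inside the gene was called once, in the first hypoxic monoculture library.

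Mmp2 and Mmp9 encode gelatinases, which cut denatured collagen and basement membrane collagen. Neither gene had a region called in all libraries. In Mmp2, a region in the gene body (chr8:92850261-92850663) was called in the first normoxic and first hypoxic co-culture libraries, at percentiles of 67.8 and 63.3 with 44 and 47 summit fragments. It was absent from both second co-culture libraries and from monoculture. A region at the upper end of the gene (chr8:92853216-92853879), which also touched the non-coding gene Gm45472, was called in both hypoxic monoculture libraries at percentiles of 9.27 and 31.8, with 15 and 25 fragments. It had no peak in the other 6 libraries. Another region, 1252 bp beyond the gene, was called once, in the first hypoxic monoculture library.

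The main region of Mmp9, chr2:164942788-164943316 in the gene body, was called in 6 libraries at low ranks. Its percentiles were 15.0 in the first normoxic monoculture library and 9.32 in the second hypoxic monoculture library. They were 27.9 and 14.5 in normoxic co-culture and 5.98 and 15.3 in hypoxic co-culture. Its summits held 9 to 15 fragments, where a call needed 6 to 8 at the commonest background. The part of depth in its absence from 2 monoculture libraries was not tested. A region 4901 bp beyond the gene, chr2:164960751-164961949, was called in both hypoxic co-culture libraries and in no other, at percentiles of 22.1 and 12.8. It overlapped a listed start of Slc12a5, a neuronal potassium-chloride transporter gene, and its summits in the 2 libraries were 741 bp apart. A region below the gene was called in the first hypoxic co-culture library.

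Mmp14 (membrane type 1 metalloproteinase) had 4 regions. The region called in all libraries, chr14:54426245-54427163, had its summit 5190 bp upstream and overlapped the start of Mrpl52, a mitochondrial ribosomal protein gene. Its percentiles were 30.1 and 37.5 in normoxic monoculture, 65.2 and 80.0 in hypoxic monoculture, 73.4 and 57.0 in normoxic co-culture, and 67.5 and 47.7 in hypoxic co-culture. Both normoxic monoculture libraries were the lowest, in the 2 shortest lists. A region at the downstream end of the gene, chr14:54442421-54443036, was called in 7 libraries and missed in the second normoxic monoculture library, the shortest list. Its percentiles there were 26.3 in the first normoxic monoculture library, 48.1 and 83.0 in hypoxic monoculture, 33.0 and 25.6 in normoxic co-culture, and 35.6 and 63.1 in hypoxic co-culture. A region 2098 bp inside the gene was called in 1 library.

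The remaining Mmp14 region, chr14:54449106-54449549, lay 6650 bp beyond the gene and overlapped no gene. It was called in all 4 co-culture libraries and in no monoculture library. The percentiles were 39.9 and 24.4 in normoxic co-culture and 9.17 and 39.3 in hypoxic co-culture, with 19, 14, 15 and 21 summit fragments. Scaled to the background coverage of the monoculture libraries, these fragment numbers came to between 7.67 and 13.6 in the first normoxic library. They came to between 10.5 and 18.6 in the second and between 14.3 and 26.0 in the hypoxic monoculture libraries. At the commonest background of each list, a call needed 6, 7 and 8 fragments in the same order. The 4 co-culture peaks had a solved background above the commonest of their lists, so these limits may be too low here. The part of depth in the missing peaks was not tested.

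Adam17 (the sheddase that releases TNF and ligands of the EGF receptor from the cell surface) had the 2 regions with the highest median percentile of the 31, one in its body and one at its promoter. The region in its body, chr12:21335763-21336470, was called in all libraries, with its summit 37583 bp downstream of the start. Its percentiles were 89.5 and 92.0 in normoxic monoculture, 87.1 and 96.8 in hypoxic monoculture, 95.4 and 93.1 in normoxic co-culture, and 91.7 and 79.1 in hypoxic co-culture. The second hypoxic co-culture library was the lowest. The promoter region, chr12:21373206-21374163, whose upstream sequence is printed above, had its median summit 17 bp from the start. Its percentiles were 77.5 in the first normoxic monoculture library, 87.5 and 88.0 in hypoxic monoculture, 92.5 and 93.2 in normoxic co-culture, and 87.1 and 82.3 in hypoxic co-culture. It was missed in the second normoxic monoculture library, although the other libraries ranked it high, with 39 to 110 summit fragments.

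The third Adam17 region called in all libraries, chr12:21315948-21317234, lay 6275 bp beyond the downstream end of the gene, over the start of Iah1, an esterase gene. Its percentiles were 84.4 and 67.1, 86.6 and 78.6, 84.3 and 92.7, and 48.8 and 57.3, in the order of groups used above. Both hypoxic co-culture libraries were lower than the other 6. Regions 4461 and 3168 bp inside the gene were each called in 1 library.

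Timp1, an inhibitor whose gene lies within Syn1, had a single region, chrX:20863364-20863921, with its summit 6496 bp upstream of the start and inside Syn1. It was called in 6 libraries. The percentiles were 30.5 in the first normoxic monoculture library, 16.3 and 30.2 in hypoxic monoculture, 48.3 and 39.3 in normoxic co-culture, and 20.1 in the first hypoxic co-culture library. The second normoxic monoculture and the second hypoxic co-culture library had no peak there.

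Timp2 (which inhibits metalloproteinases and also bridges MMP14 and pro-MMP2) had 6 regions, the most of the 10 genes. A region in its body, chr11:118327152-118327940, with its summit 27844 bp downstream of the start, was called in all 4 co-culture libraries and in no monoculture library. Its percentiles were 50.2 and 37.5 in normoxic co-culture and 89.3 and 74.8 in hypoxic co-culture, and its summits held 23, 20, 71 and 43 fragments. Both hypoxic co-culture libraries thus ranked it above both normoxic ones. Scaled to the monoculture libraries, the fragment numbers came to between 11.0 and 51.6 in normoxia and between 20.4 and 72.2 in hypoxia. At the commonest background a call needed 6 or 7 fragments in normoxia and 8 in hypoxia. The 4 co-culture peaks had a solved background above the commonest of their lists, so these limits may be too low here. The region was named for its absence from monoculture, and the part of depth in that absence was not tested.

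Upstream of Timp2, chr11:118362634-118363592 was called in 7 libraries, with its summit 7962 bp before the start. The percentiles were 36.3 in the first normoxic monoculture library, 11.6 and 33.1 in hypoxic monoculture, 46.5 and 52.9 in normoxic co-culture, and 37.7 and 13.3 in hypoxic co-culture. The second normoxic monoculture library had no peak at any of the 6 Timp2 regions. A region 42946 bp downstream of the start was called in 3 libraries at percentiles from 7.03 to 41.1. The other 3, among them the promoter region (percentile 13.9, 13 fragments, first hypoxic co-culture library), were each called once.

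Timp3 (the inhibitor that binds the matrix and also blocks ADAM17) lies within Syn3, and its 3 regions were called in first co-culture libraries alone. The region chr10:86310622-86311000, 10369 bp downstream of the start, had percentiles of 32.3 in normoxic and 65.8 in hypoxic co-culture, with 17 and 34 fragments. The region at chr10:86300462-86300846 began directly beyond the promoter window, with its summit 142 bp downstream of the start. It was called in the first normoxic co-culture library (percentile 38.6). A region 39318 bp downstream was called in the first hypoxic co-culture library (percentile 54.9).

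Oxygen did not separate any region of the 10 genes across both cultures. None of the 31 was called in the 4 hypoxic libraries and absent from the 4 normoxic ones, against 2.08% of all regions, and none the reverse, against 0.0196%. In monoculture, 1 of 31 regions was gained with hypoxia, meaning a peak in both hypoxic and neither normoxic library. This was the region at the upper end of Mmp2, and 17.7% of all regions were gained. None was lost (0.179% of all regions). In co-culture, 1 of 31 was gained with hypoxia, the region at the start of Slc12a5 beyond Mmp9 (6.09% of all regions), and none was lost (2.05%). Leaving out 1 library loosens the rule by construction, so it kept the calls at Mmp2 and at the Slc12a5 start and could only add others. In monoculture 6 regions were then gained without the second hypoxic, 5 without the first normoxic and 2 without the first hypoxic library. In co-culture 7 were gained without its second hypoxic library. These calls carry no p-value. An exact permutation test of 4 libraries against 4 within culture has 36 relabellings and a smallest two-sided p of 0.0556, and with 2 against 2 the smallest is 0.333. No single region could therefore reach 0.05.

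Culture separated 2 regions, those beyond Mmp14 and in the body of Timp2 described above. They made up 2 of 31 regions, against 1.98% of all regions, and belonged to 2 of the 10 genes, against 3.54% of protein-coding genes with such a region within 10 kb. None was called in all 4 monoculture and no co-culture library (0.027% of all regions). In normoxia the same 2 regions were the only ones gained with co-culture (12.5% of all regions), and none was lost (0.181%). In hypoxia 3 of 31 were gained, these 2 and the region beyond Mmp9 (5.83% of all regions), and 1 was lost, at the upper end of Mmp2 (3.76%). Leaving out 1 library, which can only add regions, raised these counts within 1 oxygen level. In normoxia 7 regions were gained without the first monoculture library and 6 without the second co-culture library. In hypoxia 11 were gained without the second co-culture library, and 6 were lost without the second monoculture library and 2 without the first co-culture library. With a −log10 q of at least 5 none was lost in hypoxia. The region beyond Mmp9 was not gained with co-culture in hypoxia under the alternatives that ended its oxygen call. Leaving out any 1 library added no further region to the Mmp14 and Timp2 regions in the comparison across both oxygen levels. In lists limited to the 9910 highest peaks each, neither separated the cultures. There the Timp2 region had a peak in both hypoxic co-culture libraries alone, and the Mmp14 region in none.

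Markers of glial and glioma cells were counted in the same lists. Regions near the 10 markers numbered 0 and 0 in normoxic monoculture, 2 and 2 in hypoxic monoculture, 6 and 2 in normoxic co-culture, and 13 and 5 in hypoxic co-culture. The second normoxic co-culture library thus held as many as each hypoxic monoculture library, and the lists of hypoxic monoculture and co-culture held more of all regions (51.5% to 70.7%) than those of normoxic monoculture (30.8% and 23.1%). No marker had a region that separated the 4 co-culture from the 4 monoculture libraries, 3 (Nes, Pdgfra and Sox2) had one gained with co-culture in hypoxia (10.5% of protein-coding genes did), 1 (S100b) had one gained with hypoxia in monoculture (23.0% of protein-coding genes did), and Olig2, Fabp7 and Egfr had no region in any list. The part of residual GL261 cells in the Mmp14 and Timp2 regions was not tested.

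A second pattern followed the replicate number within co-culture. The Mmp2 region in the gene body and the Timp3 region 10369 bp downstream had a peak in both first co-culture libraries and in no other library. This was 2 of 31 regions, against 1.03% of all regions. No region of the 10 genes had a peak in both second co-culture libraries alone, against 0.262% of all regions. The glial marker regions were also more numerous in the first co-culture libraries (6 and 13) than in the second (2 and 5). Cspg4 alone held 5 of the 13, and by gene the counts were 4 and 6 against 2 and 5. Over all regions the shares called were 51.7% and 70.7% in the first libraries and 51.5% and 51.5% in the second. Whether the glial marker regions and the Mmp2 and Timp3 regions move together through the cells sorted was not tested.

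For the 6 regions called in every list, ranks could be compared over one set of equal size, the 6375 regions called in all 8 libraries. This comparison was chosen after the values were seen. The Mmp12 upstream region stood at percentiles of 70.7 and 74.7 in normoxic monoculture, 78.7 and 89.0 in hypoxic monoculture, 50.0 and 37.2 in normoxic co-culture, and 42.6 and 16.0 in hypoxic co-culture. All 4 co-culture libraries were below all 4 monoculture libraries. The means were 36.5 ± 14.6 and 78.3 ± 7.87 (SD, n = 4 each), a difference of −41.8 points (two-sided exact permutation test within oxygen level, p = 0.0556, the smallest possible; 0.222 after Benjamini-Hochberg adjustment over 12 tests). The difference was −29.1 points in normoxia and −54.5 in hypoxia, and between −48.3 and −34.0 when 1 library was left out.

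The second Mmp8 region, inside Mmp27, likewise had all co-culture libraries below all monoculture libraries. It stood at 42.3 and 42.8, 31.0 and 37.5, 9.54 and 17.4, and 25.9 and 17.5 in the order of groups used above. The means were 17.6 ± 6.69 in co-culture and 38.4 ± 5.48 in monoculture (n = 4 each), a difference of −20.8 points (exact permutation p = 0.0556, adjusted 0.222). The first Mmp8 region stood at 52.3 and 82.5, 73.2 and 88.9, 43.9 and 32.6, and 62.0 and 36.4. Its means were 43.7 ± 13.0 in co-culture and 74.2 ± 16.0 in monoculture, a difference of −30.5 points (exact permutation p = 0.0556, adjusted 0.222), and the groups overlapped. Among the 6375 shared regions, 6.46% had every co-culture library ranked below every monoculture library and 5.62% the reverse. All 3 regions lie in the chromosome 9 cluster.

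**Figure D4:**
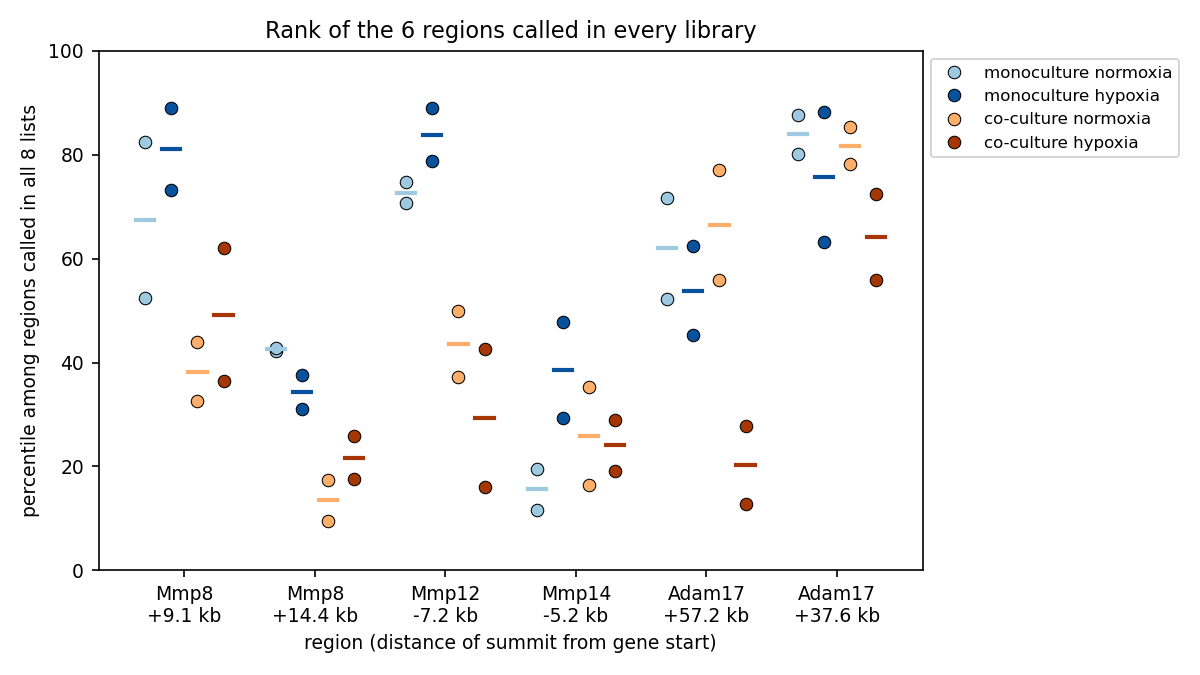
Percentile among the 6375 regions called in all 8 lists, for the 6 regions of the 10 genes among them. Points are libraries, coloured by group, and short lines are the means of 2 libraries. The Mmp12 region upstream of the start and the second Mmp8 region have the 4 co-culture points below the 4 monoculture points.

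The other 3 shared regions overlapped between cultures. The Adam17 region in the gene body differed by −6.89 points between co-culture and monoculture (exact permutation p = 0.389), and by −13.1 to −0.615 points when 1 library was left out. The region at the Iah1 start differed by −14.5 points (exact permutation p = 0.333), with 4.55 points in normoxia and −33.5 in hypoxia, and by −20.7 to −9.22 when 1 library was left out. The Mmp14 upstream region at the Mrpl52 start differed by −2.13 points (exact permutation p = 0.778), with 10.3 points in normoxia and −14.6 in hypoxia. For these last 2 regions the mean over both oxygen levels thus joins differences of opposite sign.

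For oxygen, the largest difference among the 6 was at the Iah1 start, with 37.0 ± 21.5 in hypoxia and 64.2 ± 12.0 in normoxia (n = 4 each; −27.2 points, exact permutation p = 0.111, adjusted 0.333). It was −8.17 points in monoculture and −46.2 points in co-culture, and between −33.6 and −22.0 when 1 library was left out. Ranked by fold in place of −log10 p it was −14.2 points, beside −14.0 at the Mmp12 region. The Adam17 body region differed by −12.9 points with hypoxia (exact permutation p = 0.222), and by −19.1 to −6.59 when 1 library was left out. The first Mmp8 region differed by 12.3 points (exact permutation p = 0.333), and by 3.65 to 18.4 when 1 library was left out. All 6 oxygen comparisons had groups that overlapped. The share of all shared regions with separate hypoxic and normoxic ranks was not counted. The Mmp14 upstream region differed by 10.6 points (exact permutation p = 0.278), with 23.0 points in monoculture and −1.85 in co-culture, and by 5.77 to 15.3 when 1 library was left out. The Mmp12 region differed by −1.56 points, from 11.2 in monoculture and −14.3 in co-culture, and the second Mmp8 region by −0.027 points, from −8.28 and 8.23. With 1 library left out these values ranged from −8.16 to 5.07 and from −2.08 to 2.49, so neither had a stable sign. The means of these 3 regions thus also join opposite signs.

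Among 39 other genes of matrix proteolysis (further metalloproteinases, ADAM and ADAMTS proteases, plasminogen activators, their inhibitors and partners), 30 had a region within 10 kb and 8 had one called in all libraries. One of these is Mmp27, whose 3 regions are the Mmp8 regions described above. Without Mmp27 the counts were 29 and 7 of 38. Of all protein-coding genes, 69.5% had a region and 28.2% one called in all libraries. A region separating co-culture from monoculture lay at 3 of the 39, or 7.69%, against 3.54% of protein-coding genes. These were Adam19, which encodes a meltrin protease (chr11:46065368-46066014, percentiles from 31.9 to 69.4), Lrp1, whose product takes up proteases and their inhibitor complexes (chr10:127542175-127542991, from 17.1 to 49.3), and Bsg, which encodes the metalloproteinase inducer basigin (chr10:79696045-79696717, from 5.90 to 17.3). The Adam19 and Lrp1 regions lay in the gene bodies. A region separating hypoxia from normoxia lay at 1 of the 39, or 2.56%, against 3.11% of protein-coding genes. It was near Adam15 (chr3:89359678-89360591, from 35.4 to 69.7), inside the neighbouring genes Dcst1 and Dcst2. No gene of this list had a region lost in either comparison across all 8 libraries. Mmp1a, Mmp3, Mmp7 and Mmp10, members of the chromosome 9 cluster beside Mmp8, Mmp12 and Mmp13, had no region within 10 kb in any list.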

How the data were processed

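ATAC-seq peak lists of 8 BV2 libraries were used, 1 list per library, so peaks had been called per library. The submitters' processing notes name Trimmomatic 0.36, HISAT2 2.1.0, Picard, SAMtools, deepTools, MACS2 2.1.1.2 and the build mm10, without settings. The Tn5 shift is not given in the sources used here. Each deposited list gives per peak a −log10 p and a −log10 q (lowest value just above 2), a fold ratio over the background, a score (10 times the −log10 q, rounded down) and a summit offset. These values are the authors' and were used to rank, filter or describe peaks within a list.

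Overlapping peaks of the 8 lists were merged into regions. Gene bodies came from RefSeq (GRCm38.p6), extended by 10 kb, and all 10 genes were matched. Promoter sequences matched 8 genes. Fragment numbers were solved from the deposited fold and −log10 p, assuming fold = (n + 1)/(b + 1) and a Poisson p, which returned the deposited p to within 0.001 for 99.8% to 99.9% of peaks. A percentile is a peak's rank by −log10 p within its list. Region calls carry no test, and rank differences used exact permutation tests. The call rule was run on planted regions, the solving of fragment numbers on simulated ones, and the permutation test on a constructed set of values. Every region called in a comparison or in all libraries is named, with the highest ranked of each gene. The genes and lists were chosen with earlier results of these data known, and nothing shown before is given as independent support. Replicates are biological per the labels. The scripts ran under Python 3.11.15 with pandas 2.3.3, matplotlib 3.10.9, scipy 1.17.1 and numpy 2.4.6.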

Additional observations from a re-analysis of the deposited data

Results flagged for a closer look

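The second Mmp8 region (chr9:7572439-7573314, inside Mmp27) had oxygen differences of opposite sign in the 2 cultures. Among regions called in all 8 libraries, both hypoxic monoculture libraries ranked below both normoxic ones (31.0 and 37.5 against 42.3 and 42.8), and both hypoxic co-culture libraries above both normoxic ones (25.9 and 17.49 against 9.54 and 17.41). The differences were −8.28 and 8.23 points, and their difference was 16.5 points. An exact permutation test of that difference within culture (36 relabellings) gave p = 0.0556, the smallest possible. The region was picked for this pattern, so this p-value gives no support. In co-culture the groups were separated by 17.49 against 17.41 alone. Of the 6375 shared regions, 5.43% showed such opposite signs.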

How the results depend on the processing

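With 2 libraries a group, a call rests on single peaks. Counts of 0 for hypoxia across both cultures, in either direction, were the same under every alternative run. For co-culture across both oxygen levels, 2 regions were gained under each alternative except equal-number lists (0) and a distance of 2 kb (1, Timp2). Equal-number lists also gave 0 regions gained with hypoxia in monoculture, 0 with co-culture in normoxia and 1 with co-culture in hypoxia. The region then gained with hypoxia in co-culture was the Timp2 one and not the one beyond Mmp9, and the 1 lost with co-culture in hypoxia was the second Mmp8 region and not the Mmp2 one. With a −log10 q of at least 5, 0 were gained with hypoxia in monoculture and 0 lost with co-culture in hypoxia. When a library had to cover 50% of a region, 2 were gained with hypoxia in monoculture, 0 with hypoxia in co-culture, and 2 were lost with co-culture in hypoxia. Windows of 200 bp to each side of the summits gave 0 gained with hypoxia in co-culture. A distance of 2 kb gave 0 gained with hypoxia in co-culture, 1 with co-culture in normoxia and 1 with co-culture in hypoxia. Scaling to the lowest background coverage and leaving out peaks wider than 10 kb moved no count by over 1.5 times.

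Leaving out 1 library loosens the rule by construction. The number gained then ranged from 1 to 6 with hypoxia in monoculture, from 1 to 7 with hypoxia in co-culture, from 2 to 7 with co-culture in normoxia and from 3 to 11 with co-culture in hypoxia. For hypoxia in monoculture the count was 5 without the first normoxic, 2 without the first hypoxic and 6 without the second hypoxic monoculture library. For co-culture in normoxia it was 7 without the first normoxic monoculture and 6 without the second normoxic co-culture library. Without the second hypoxic co-culture library it was 7 for hypoxia in co-culture and 11 for co-culture in hypoxia. The number lost ranged from 0 to 1 with hypoxia in monoculture, from 0 to 1 with hypoxia in co-culture, from 0 to 1 with co-culture in normoxia and from 1 to 6 with co-culture in hypoxia (6 without the second hypoxic monoculture and 2 without the first hypoxic co-culture library). Without both first co-culture libraries, an alternative chosen after the data were seen, 2 regions were lost with hypoxia in co-culture and 2 with co-culture in hypoxia, and the Mmp14 and Timp2 regions were still gained with co-culture. 
Ranked by fold in place of −log10 p, all 12 rank differences kept their sign. For culture, the second Mmp8 region differed by −14.1 points, the first by −19.1, the Mmp12 region by −37.8, the Mmp14 region by −11.2, the Iah1-start region by −11.6 and the Adam17 body region by −0.867. For oxygen, the Iah1-start region differed by −14.2 points, the Mmp12 region by −14.0, the Adam17 body region by −8.92, the Mmp14 region by 12.6, and the Mmp8 regions by 11.8 and −3.79. With 1 library left out, the culture difference of the Mmp14 region ranged from −6.76 to 2.75 points. With a −log10 q of at least 5 the oxygen difference of the second Mmp8 region was 0.347.

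The replicate block, added after the data were seen, could be run on the rank differences alone, since region calls come from no test. Paired by number, the differences were of the same size (−41.8 points for Mmp12 and −20.8 and −30.5 for the Mmp8 regions between cultures, lower in 4 of 4 pairs), with an exact sign-flip p of 0.125, the smallest that 4 pairs allow. The labels give no shared origin for a number, and the deviations of same-numbered libraries correlated at −0.03 to 0.196 over 6 pairs of groups, so the numbers were not taken as pairs.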

Other observations

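Ptprc, the gene of CD45 (1 of the 2 sort markers in the labels), had 2 regions called in each of the 4 hypoxic libraries and in none of the 4 normoxic ones. It was the 1 gene of 10 microglial markers with such a region, which 3.11% of protein-coding genes had, and 2.08% of all regions were of this kind. The region chr1:138158491-138159312 stood at percentiles of 74.5 and 76.7 in hypoxic monoculture and 78.5 and 65.8 in hypoxic co-culture, and chr1:138080403-138081003 at 38.7 and 33.9, and 66.3 and 26.3. Both lay in the gene body.

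The Mmp14 upstream region at the Mrpl52 start had its summit at base 54426850 in the second normoxic and at 54426822 in the second hypoxic co-culture library. In the other 6 libraries the summit lay between bases 54426365 and 54426416 of chromosome 14.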
